A study of Mus musculus with 6 samples.

Results

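The genes described here are myeloid fate transcription factors, the DNA-binding proteins that steer bone marrow progenitors towards neutrophils, monocytes, macrophages or dendritic cells. The list names 8 of them: Spi1, Cebpa, Cebpb, Cebpd, Cebpe, Gfi1, Irf8 and Klf4. Every probe set annotated to exactly 1 of these genes was taken from the 20380 probe sets with 1 gene, which represent 12393 genes. This gave 11 probe sets for 7 genes, and no probe set with 1 gene was annotated to Cebpe. Cebpb, Cebpd, Irf8 and Klf4 had 2 probe sets each, and Spi1, Cebpa and Gfi1 had 1.

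The cells were taken from C57/BL6 mice of 6 to 8 weeks of age. Their bone marrow was depleted of lineage-positive cells and infected for 24 h with a lentivirus that carried no shRNA (empty vector) or 1 of 2 shRNAs against Rad21, a core subunit of the cohesin ring that shapes chromatin loops. All 3 groups were selected with puromycin at 1 µg/mL, sorted for live cells, plated at 10000 cells per mL in methylcellulose with cytokines and collected after 7 days. Each group had 2 arrays. The labels name neither the cytokines nor the animals or cultures behind the replicates, so each p-value reflects array-to-array spread that may be technical in origin.

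Spi1 encodes PU.1, an ETS family factor that all myeloid cells need. It acts with the C/EBP family of leucine zipper factors, of which C/EBPα commits progenitors to the granulocyte and monocyte lineages. Downstream, Gfi1, a zinc finger repressor, favours neutrophils, whereas Irf8 and Klf4 favour monocytes, and Irf8 restrains neutrophil production. C/EBPβ serves granulocyte production under stress and macrophage function, and C/EBPδ is induced in maturing granulocytes and in inflammation.

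Values below are RMA intensities on the log2 scale, and a difference is always between groups for 1 probe set, since levels of different probe sets cannot be compared. A gene with several probe sets is represented by the brightest. The ± sign gives the standard error of the limma fit, p-values were adjusted by Benjamini-Hochberg across the 12393 genes, and the threshold was 0.05.

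Rad21, the targeted gene, read 11.14 and 10.49 on the control arrays. The shRNA1 arrays read 9.63 and 9.14, and those of shRNA2 9.50 and 9.11. Its difference was -1.44 ± 0.30 for shRNA1 and -1.51 ± 0.30 for shRNA2, which missed the threshold at adjusted p of 0.186 and 0.0644. Without empty-vector replicate 2 it was -1.76 and -1.84, and without empty-vector replicate 1 it was -1.11 and -1.19. On 1 of the other 2 Rad21 probe sets the groups overlapped. Empty-vector replicate 1 stood apart in quality: its Gapdh 3′ control probe set exceeded the 5′ one by 2.42 log2 units, against -0.08 to 0.02 on the other arrays. The 2 empty-vector arrays lay 0.321 from their mean (root mean square over genes), compared with 0.151 for shRNA1 and 0.141 for shRNA2. Values without 1 of the control arrays are given beside the factors below. Of the defining markers of myeloid cells, Lyz2 lay between 13.09 and 14.15 and Csf1r between 11.27 and 12.48 on all arrays. B cell markers averaged 4.32 to 4.47 on all arrays.

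Gfi1 and Cebpd lay higher on all 4 shRNA arrays than on both empty-vector arrays, and Cebpb was lower with shRNA2. Irf8 lay above empty vector with shRNA1 and below it with shRNA2, and Klf4 read lower on both shRNA2 arrays than on all others. Spi1 and Cebpa overlapped between all groups. Only the fall of Cebpb with shRNA2 passed the threshold. The plot of all probe sets by array shows these patterns.

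**Figure D1:**
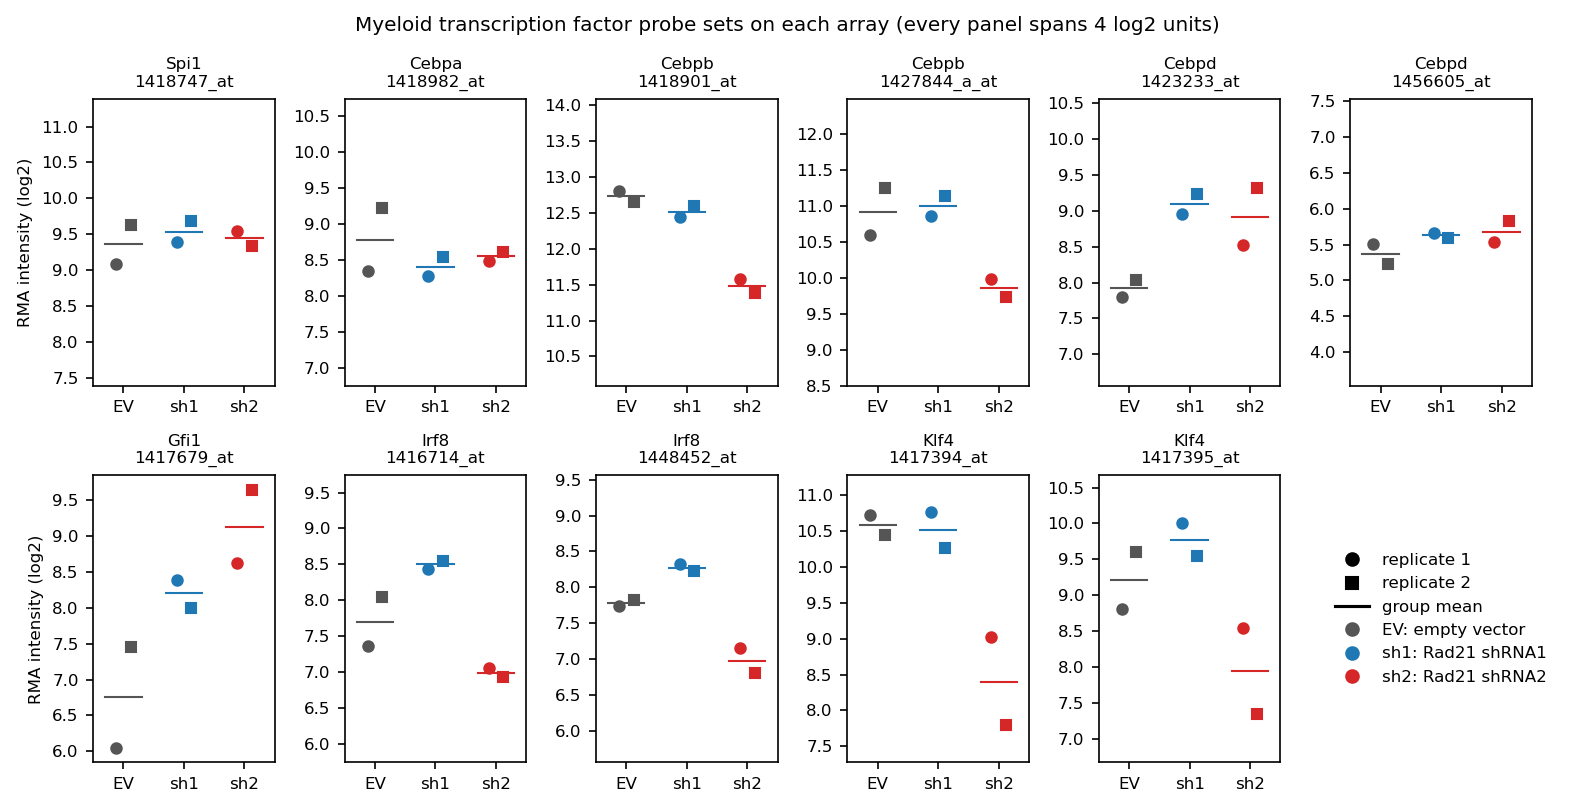
RMA intensity (log2) of each of the 11 probe sets on the 6 arrays, with 1 panel per probe set, points for replicates and a line for the group mean. Gfi1 ran from 6.05 on empty-vector replicate 1 to 9.64 on shRNA2 replicate 2, while both probe sets of Cebpb, Irf8 and Klf4 were lowest on the 2 shRNA2 arrays.

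Gfi1, the repressor that favours the neutrophil fate, showed the widest range of the 7 genes. It measured 6.05 and 7.45 with empty vector, 8.39 and 8.00 with shRNA1, and 8.63 and 9.64 with shRNA2. All shRNA arrays were above both controls, and both shRNA2 arrays were above both shRNA1 arrays. The difference for the mean of both shRNAs was 1.91 ± 0.46 (3.76-fold, 95% interval 0.78 to 3.05, n = 4 and 2), with a limma adjusted p of 0.116. Only 1.17% of all genes differed by more in either direction. For shRNA1 it was 1.45 ± 0.53 (2.72-fold, adjusted p = 0.478), and for shRNA2 it was 2.38 ± 0.53 (5.20-fold, adjusted p = 0.0868).

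The 2 empty-vector arrays themselves differed by 1.40 for Gfi1, against 0.39 between the shRNA1 and 1.01 between the shRNA2 arrays. Without empty-vector replicate 1, the array with the Gapdh gap, the difference was 1.21 for both shRNAs, 0.75 for shRNA1 and 1.68 for shRNA2, at adjusted p of 0.161, 0.574 and 0.076. In that fit 5.24%, 1.0% and 8.89% of all genes passed in the same 3 comparisons. Without empty-vector replicate 2 these values were 2.61, 2.14 and 3.08, and all passed at adjusted p of 0.00895, 0.0243 and 0.00786, with replicate 1 as the only control. In that fit 25.2%, 20.4% and 23.7% of all genes passed, so calls made without replicate 2 were common. Between the shRNAs, the difference of shRNA1 minus shRNA2 was -0.93 ± 0.53 (adjusted p = 0.999, 95% interval -2.24 to 0.38), and it ran from -1.44 without shRNA2 replicate 1 to -0.43 without shRNA2 replicate 2.

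Cebpd, which encodes C/EBPδ, measured 7.80 and 8.03 with empty vector, 8.96 and 9.24 with shRNA1, and 8.52 and 9.32 with shRNA2. No shRNA array reached down to a control array, and the shRNA groups overlapped each other. Its difference was 1.10 ± 0.25 for both shRNAs (2.14-fold, adjusted p = 0.105), 1.19 ± 0.29 for shRNA1 (2.27-fold, adjusted p = 0.245) and 1.01 ± 0.29 for shRNA2 (2.01-fold, adjusted p = 0.150). With the mean of both Cebpd probe sets these were 0.69, 0.72 and 0.66, and the shRNA2 value was 0.61 without shRNA2 replicate 2. For both shRNAs the difference was 1.21 without empty-vector replicate 2 and 0.98 without empty-vector replicate 1. shRNA1 minus shRNA2 was 0.18 ± 0.29, with a 95% interval of -0.53 to 0.89. The second, dim Cebpd probe set lay between 5.23 and 5.83, and it too was higher on every shRNA array than on either control, by 0.28 ± 0.16 (adjusted p = 0.466 over all 20380 probe sets).

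Neutrophil markers were read beside Gfi1 and Cebpd. The 8 measured of 10 averaged 10.36 and 9.29 with empty vector, 12.02 and 11.68 with shRNA1, and 12.06 and 12.12 with shRNA2. Their summed linear intensity was 24428 to 39155 with empty vector, 52616 to 62909 with shRNA1 and 62260 to 64191 with shRNA2. The marker mean was higher on control replicate 1 than on replicate 2, though not Cxcr2 (7.37 against 8.33) or Elane (5.76 against 5.78). Gfi1 and the brighter Cebpd probe set were lower on replicate 1, and the second Cebpd probe set was higher (5.51 against 5.23). Of the 8 markers, 7 had a positive difference for both shRNAs together, and Cxcr2 stood at -0.66 ± 0.33 (adjusted p = 0.389). Mpo and Elane passed in this comparison, as did 2.13% of all genes. With shRNA1 alone, where 0.234% of all genes passed, Elane did (adjusted p = 0.0162) and Mpo did not (adjusted p = 0.0582). In RNA of a mixed culture, fewer cells of a type and less RNA per cell cannot be told apart, and the part of cell composition in these differences was not tested.

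**Figure D2:**
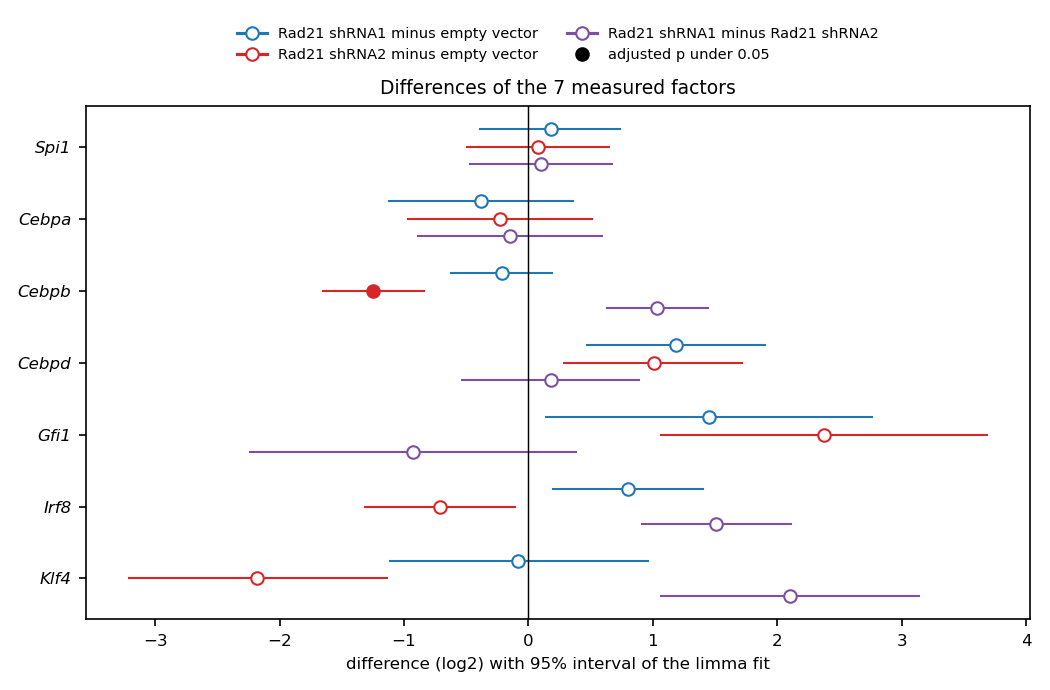
Differences (log2, x axis) of the 7 measured factors for shRNA1 minus empty vector, shRNA2 minus empty vector and shRNA1 minus shRNA2, with bars for the 95% interval and a filled point where the adjusted p was under 0.05. The 1 filled point is Cebpb with shRNA2, at -1.25, and the intervals of Irf8 for the 2 shRNAs lie on opposite sides of 0.

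Cebpb, which encodes C/EBPβ, fell with shRNA2. It measured 12.80 and 12.65 with empty vector, 12.44 and 12.60 with shRNA1, and 11.58 and 11.38 with shRNA2. Both shRNA2 arrays lay below every other array, while the shRNA1 arrays were just under the controls. For shRNA2 the level was 42.1% of control, a difference of -1.25 ± 0.16 (limma adjusted p = 0.0252, lower on 2 of 2 arrays), and 1.95% of all genes were called lower in that comparison. With shRNA1 it was -0.21 ± 0.16 (adjusted p = 0.741, 95% interval -0.62 to 0.19), or -0.067 with both probe sets averaged. For both shRNAs it was -0.73 ± 0.14 (adjusted p = 0.0706), or -0.81 without empty-vector replicate 2 and -0.66 without empty-vector replicate 1.

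The call with shRNA2 held without either empty-vector array, at -1.17 and -1.32 (adjusted p = 0.0189 and 0.00628). It was lost without shRNA2 replicate 1 (-1.35, adjusted p = 0.203) and replicate 2 (-1.15, adjusted p = 0.221). Dropping 1 shRNA1 array, or fitting shRNA2 and empty vector alone, cannot change the shRNA2 difference. In the fit of those 2 groups alone the adjusted p was 0.0738. The second Cebpb probe set measured 10.60 and 11.25 with empty vector, 10.86 and 11.14 with shRNA1, and 9.98 and 9.74 with shRNA2. It put the shRNA2 arrays lowest again, at -1.06 ± 0.26 (adjusted p = 0.132 over all probe sets), and shRNA1 at 0.08 ± 0.26.

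Klf4, a zinc finger factor of monocyte differentiation and a known target of Irf8, had the largest difference between the shRNAs of the 7 genes. Its brighter probe set read 10.73 and 10.44 with empty vector, 10.76 and 10.26 with shRNA1, and 9.02 and 7.79 with shRNA2. Control and shRNA1 arrays overlapped, and both shRNA2 arrays were lower. The difference with shRNA2 was -2.18 ± 0.42 (4.53-fold lower, adjusted p = 0.0615). It was -2.32 without empty-vector replicate 2, and over all fits without 1 array it ran from -2.8 to -1.56. With shRNA1 it was -0.08 ± 0.42, with a 95% interval from -1.11 to 0.96, and the sign turned to 0.24 with the mean of both probe sets and to 0.066 without empty-vector replicate 1. The mean of both shRNAs was -1.13 ± 0.36 (adjusted p = 0.209), or -0.74 with both probe sets averaged.

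The second Klf4 probe set measured 8.81 and 9.60 with empty vector, 10.00 and 9.55 with shRNA1, and 8.54 and 7.34 with shRNA2. Here the shRNA2 arrays were again the lowest, by -1.27 ± 0.47 against control (adjusted p = 0.273), and shRNA1 stood at 0.56 ± 0.47. The 2 shRNA2 arrays differed from each other by 1.24 and 1.2 on the 2 probe sets, more than any other pair of replicates did for Klf4.

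Irf8, an interferon regulatory factor that monocytes and dendritic cells need, went opposite ways with the 2 shRNAs. It measured 7.36 and 8.04 with empty vector, 8.44 and 8.55 with shRNA1, and 7.05 and 6.93 with shRNA2. Every shRNA1 array was above both controls and every shRNA2 array below both. Among all genes, 47 of 12393 (0.379%) had this arrangement. The difference was 0.80 ± 0.24 with shRNA1 (1.74-fold, adjusted p = 0.378) and -0.71 ± 0.24 with shRNA2 (1.64-fold lower, adjusted p = 0.212). The mean of both shRNAs was therefore 0.04 ± 0.21, and it hides the split.

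The Irf8 values depended on the control arrays. Without empty-vector replicate 1 the difference was 0.46 with shRNA1 (adjusted p = 0.272) and -1.04 with shRNA2 (adjusted p = 0.0191). Without replicate 2 it was 1.13 (adjusted p = 0.00868) and -0.37 (adjusted p = 0.133). The second Irf8 probe set, on which the controls differed by 0.08, read 7.74 and 7.82 with empty vector, 8.32 and 8.23 with shRNA1, and 7.15 and 6.80 with shRNA2. It repeated the arrangement, with 0.50 ± 0.18 for shRNA1 and -0.80 ± 0.18 for shRNA2 (adjusted p = 0.549 and 0.107 over all probe sets).

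**Figure D3:**
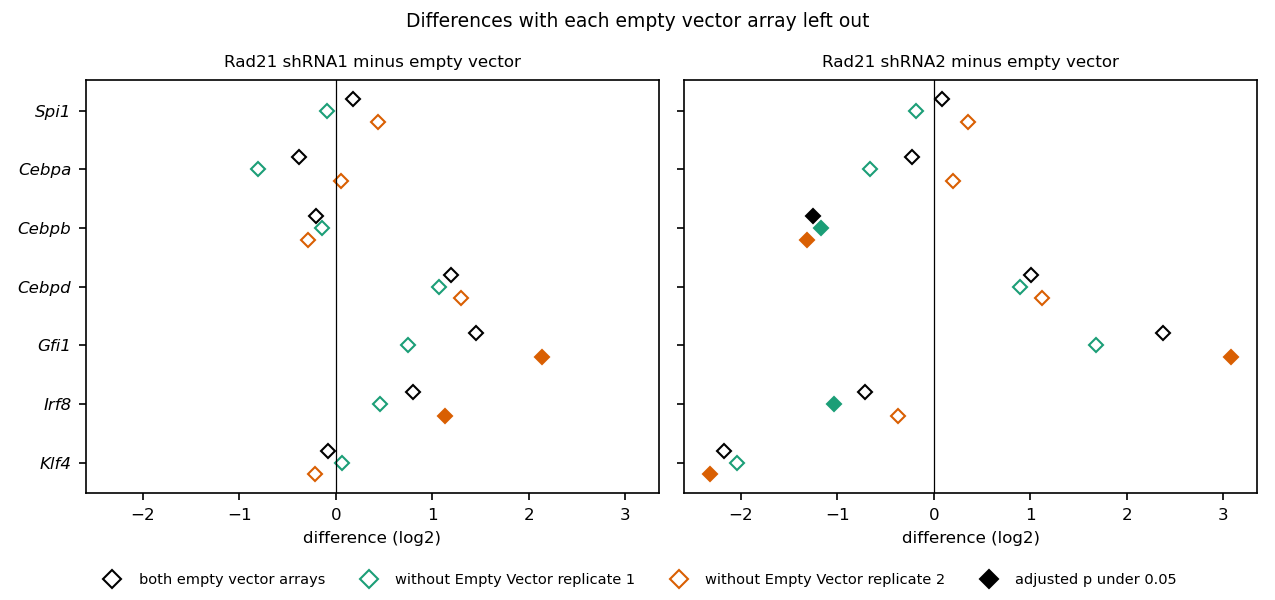
Differences (log2, x axis) of the 7 factors for each shRNA against both empty-vector arrays and with either control array left out, filled where the adjusted p was under 0.05. Cebpb with shRNA2 is filled in all 3 cases, while Gfi1 with shRNA2 ranges from 1.68 to 3.08 and Irf8 with shRNA1 from 0.46 to 1.13.

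The comparison of the shRNAs with each other asked whether their effects differ. Klf4 was higher with shRNA1 than with shRNA2 by 2.10 ± 0.42 (4.29-fold), Irf8 by 1.51 ± 0.24 (2.84-fold) and Cebpb by 1.03 ± 0.16 (2.05-fold). Of all genes, 0.113%, 0.516% and 1.55% differed by more than these 3 in that order. On all 6 probe sets of these genes the shRNA1 and shRNA2 arrays did not overlap. The same held for 41.6% of all genes on their brightest probe set. None of the 3 genes passed in the fit of all arrays, at adjusted p of 0.427, 0.297 and 0.288, where 0 of 12393 genes did. In a fit of the 4 shRNA arrays alone, 44 genes passed (0.355%), and Irf8 was among them at an adjusted p of 0.0363, with Cebpb at 0.0647 and Klf4 at 0.144. Rad21 itself differed by 0.08 ± 0.30 between the shRNAs.

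Monocyte and macrophage markers were read beside these 3 genes. The 12 markers averaged 9.21 and 9.82 with empty vector, 9.94 and 9.89 with shRNA1, and 9.18 and 9.20 with shRNA2, and 11 of 12 were higher with shRNA1 than with shRNA2, none past the threshold. In this mean, empty-vector replicate 1 lay at the level of the shRNA2 arrays. Summed linear intensity ran from 28154 to 52336 with empty vector, 46584 to 50225 with shRNA1 and 32711 to 32750 with shRNA2. The complement genes C1qa, C1qb and C1qc lay between 4.28 and 6.15 on all arrays, and none was at 0. Dendritic cell markers averaged 7.70 and 7.78, then 7.32 and 7.10, then 6.92 and 6.79 in the same order of groups. The part of these cell types in the differences was not tested.

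Promoter windows are printed for the 3 of the measured factors with the largest differences between the shRNAs. These are the RefSeq windows of Cebpb, Klf4 and the upstream Irf8 start, from 250 bases before to 50 bases after the start. The assembly was GRCm38.p6, and the letters run 5′ to 3′ on the gene's strand. Promoter windows were found for 5 of the 8 listed genes. Capitals mark matches on either strand to any of 8 motifs: the TATA box TATAAA, the cyclic AMP element core TGACG, the C/EBP site TTGCNNAA, the Sp and KLF factor site GGGCGG (GC box), the PU.1 site GAGGAA, the interferon-stimulated response element of IRF factors, the Gfi1 site AAATCA, and the CCAAT box. No match overlapped one of another motif.
Cebpb, chr2:167688665-167688964, plus strand: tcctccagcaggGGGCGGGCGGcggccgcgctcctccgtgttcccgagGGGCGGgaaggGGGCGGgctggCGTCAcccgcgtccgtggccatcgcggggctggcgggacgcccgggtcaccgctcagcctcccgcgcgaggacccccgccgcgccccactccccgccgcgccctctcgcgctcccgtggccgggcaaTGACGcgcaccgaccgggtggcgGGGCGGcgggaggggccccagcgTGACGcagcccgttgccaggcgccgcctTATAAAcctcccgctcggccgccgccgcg
Klf4, chr4:55532426-55532725, minus strand: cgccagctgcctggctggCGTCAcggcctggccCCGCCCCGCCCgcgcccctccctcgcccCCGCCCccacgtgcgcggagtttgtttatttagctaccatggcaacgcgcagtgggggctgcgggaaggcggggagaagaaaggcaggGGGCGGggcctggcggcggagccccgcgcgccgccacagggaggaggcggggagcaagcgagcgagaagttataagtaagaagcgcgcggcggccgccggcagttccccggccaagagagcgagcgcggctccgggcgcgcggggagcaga
Irf8, chr8:120736108-120736407, plus strand: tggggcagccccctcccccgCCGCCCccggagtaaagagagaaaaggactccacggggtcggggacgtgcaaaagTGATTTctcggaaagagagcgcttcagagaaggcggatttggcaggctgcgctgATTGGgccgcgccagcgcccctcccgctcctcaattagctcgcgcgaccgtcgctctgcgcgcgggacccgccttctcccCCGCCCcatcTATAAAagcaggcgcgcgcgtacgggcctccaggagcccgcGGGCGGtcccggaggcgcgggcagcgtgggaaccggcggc
GC content was 80.7% for Cebpb, 74.3% for Klf4 and 70.0% for Irf8, against a median of 53.0% over 32544 windows. The GC box matched 5 times in Cebpb, 4 times in Klf4 and 3 times in Irf8, and 35.9% of all windows held at least 1. In Cebpb and in Klf4, 1 pair of GC boxes overlapped. TGACG matched 3 times in Cebpb and 1 time in Klf4 (20.9% of windows). TATAAA matched 1 time in Cebpb, 21 bases after the start, and 1 time in Irf8, 31 bases before it (13.6% of windows). Irf8 also held 1 match to the Gfi1 site (13.9% of windows) and 1 to the CCAAT box (37.4%). C/EBP, PU.1 and IRF motifs had no match in these 3 windows. Such matches describe the letters in the window and not binding.

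Spi1 and Cebpa, the factors that act earliest, overlapped between the groups, with 1 shRNA1 array each just outside the controls. Spi1 measured 9.09 and 9.63 with empty vector, 9.39 and 9.68 with shRNA1, and 9.54 and 9.34 with shRNA2. Its 6 arrays spanned 0.58, and the 2 control arrays alone spanned 0.53. The difference was 0.13 ± 0.20 for both shRNAs (95% interval -0.36 to 0.62), 0.18 ± 0.23 for shRNA1 and 0.08 ± 0.23 for shRNA2, so a change of more than 0.74 in either direction lies outside all 3 intervals. Without empty-vector replicate 1 all 3 signs turned, to -0.14, -0.091 and -0.19.

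Cebpa measured 8.35 and 9.22 with empty vector, 8.27 and 8.54 with shRNA1, and 8.49 and 8.61 with shRNA2. The controls bracketed 3 of the 4 shRNA arrays. Its difference was -0.30 ± 0.26 for both shRNAs (95% interval -0.94 to 0.34), -0.38 ± 0.30 for shRNA1 and -0.23 ± 0.30 for shRNA2, with adjusted p of 0.629, 0.747 and 0.784. These values rest on which control array is used. Without empty-vector replicate 1 they were -0.74, -0.81 and -0.66, at adjusted p of 0.0661, 0.130 and 0.0826, and without replicate 2 they were 0.13, 0.055 and 0.20.

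Counted together, 0 of 7 genes passed for both shRNAs by limma, against 2.13% of all genes, and 4 of 7 had an unadjusted p under 0.05 against 16.7%. With shRNA1 alone, 0 of 7 passed (0.234% of all genes) and 3 had an unadjusted p under 0.05 (9.30%). For shRNA2, 1 of 7 passed (2.83%), and 5 had an unadjusted p under 0.05 (17.8%). Between the shRNAs, 0 of 7 passed (0.0% of all genes) and 3 had an unadjusted p under 0.05 (4.89%). Arrays did not overlap for 3 of 7 genes with both shRNAs (25.1% of all genes), 4 with shRNA1 (34.7%), 5 with shRNA2 (44.2%) and 4 between the shRNAs (41.6%). Median differences of the 7 genes were 0.04 for both shRNAs, 0.18 for shRNA1 and -0.23 for shRNA2, beside -0.023, -0.033 and -0.011 over all genes.

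Relatives and partners of these factors gave no calls in the fit of all arrays. For both shRNAs together, limma called 0 of 10 PU.1 relatives and partners, 0 of 5 in the Gfi1 group and 0 of 6 other IRF genes. It also called 0 of 9 other KLF genes and 0 of 2 other C/EBP genes. In the same order, 4, 2, 1, 3 and 0 genes had an unadjusted p under 0.05. Of all genes, 2.13% passed and 16.7% had an unadjusted p under 0.05. Cbfb, the partner subunit of Runx1, differed by 0.65 ± 0.20 (adjusted p = 0.197), and Gfi1b, the relative of Gfi1 in erythroid and megakaryocytic cells, by -0.86 ± 0.18 (adjusted p = 0.0872). Irf7, which amplifies interferon responses, differed by -0.83 ± 0.17 (adjusted p = 0.0847), and Ddit3, a stress-induced C/EBP relative, by -0.62 ± 0.32 (adjusted p = 0.412). Without empty-vector replicate 2, Cbfb differed by 0.96, Gfi1b by -1.1 and Irf7 by -0.74, with replicate 1 as the only control. Without replicate 1, Cbfb differed by 0.34, Gfi1b by -0.62 and Irf7 by -0.91. Ddit3 differed by -0.40 without empty-vector replicate 2 and by -0.37 without shRNA2 replicate 2. Klf2, the close relative of Klf4, measured 10.46 and 10.45 with empty vector, 10.70 and 10.26 with shRNA1, and 9.37 and 9.46 with shRNA2. Its shRNA2 arrays were the lowest, by -1.04 against control (adjusted p = 0.0538), and shRNA1 stood at 0.03.

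Among macrophage and dendritic fate factors, 2 of 8 measured passed for both shRNAs together, both lower, and the median difference was -1.0. A positive difference was seen for 2 of the 8, the larger for Tcf4 (1.01 ± 0.18, adjusted p = 0.0564). Of all genes, 2.13% passed in this comparison. Egr2, a zinc finger factor of macrophages, fell by 1.57 on the log2 scale (SE 0.17, adjusted p = 0.0183), and Id2, which blocks E proteins, fell by 1.39 (SE 0.13, adjusted p = 0.0122). Egr2 differed by -0.93 with shRNA1 and -2.20 with shRNA2, and Id2 by -0.85 and -1.94. Control arrays are shared between these comparisons. The call of Egr2 was lost without shRNA1 replicate 1 or either shRNA2 array (adjusted p = 0.0846, 0.0995 and 0.103). That of Id2 was lost without any 1 shRNA array (0.0501 to 0.0848) and with the mean of its probe sets (-1.17, adjusted p = 0.261).

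Receptors and granule genes that these factors are known to control were read beside them. In the comparison of both shRNAs with empty vector, 2.13% of all genes passed and 16.7% had an unadjusted p under 0.05. Of 9 myeloid growth factor receptors, 1 passed and was lower, the stem cell factor receptor Kit (-1.61 ± 0.25, adjusted p = 0.0412), and the median was 0.39. Its call was lost without any 1 shRNA array (adjusted p = 0.0564 to 0.182), with quantile normalization (0.053), with the dimmer 50% of genes left out (0.051) and with each probe set tested on its own (0.0637). Kit also marks mast cells. Of 9 measured mast cell and basophil markers 3 passed and were lower, Kit, Fcer1a (-2.04 ± 0.26) and Mcpt2 (-2.04 ± 0.25), and none had a positive difference. Those markers averaged 11.46 and 12.01 with empty vector, 10.45 and 10.99 with shRNA1, and 10.64 and 10.76 with shRNA2. Of 7 megakaryocyte markers, which averaged 10.56 to 10.75, 9.03 to 10.04 and 9.07 to 9.12, 1 passed and was lower, Clec1b (-2.68 ± 0.37). Of 8 erythroid markers, which averaged 7.18 to 9.12, 6.86 to 6.95 and 6.35 to 6.88, none passed. The part of these cells in the Kit difference was not tested. The receptors of M-CSF and G-CSF, chosen after their values were seen as known targets of PU.1 and C/EBPα, did not pass: Csf1r differed by 0.71 ± 0.16 (adjusted p = 0.102) and Csf3r by 0.75 ± 0.23 (adjusted p = 0.189). All 5 primary granule genes rose, with a median of 4.93, led by Mpo, Elane and Prtn3 (5.34 ± 0.49, 4.98 ± 0.21 and 4.93 ± 0.34). Of 10 genes listed as secondary and tertiary granule genes, some of which depend on C/EBPε, 1 passed, the iron-siderophore binder Lcn2 (2.10 ± 0.16, adjusted p = 0.00832). In that list 8 of 10 had a positive difference, and the median was 1.26. Without shRNA2 replicate 1 the calls of Mpo, Prtn3 and Lcn2 were lost (adjusted p = 0.0748, 0.0525 and 0.0606). That of Mpo was also lost without shRNA2 replicate 2 (0.0699) and that of Lcn2 without shRNA1 replicate 1 (0.0564). NADPH oxidase genes had 0 of 5 past the threshold and 3 at an unadjusted p under 0.05, and Ncf1, a cytosolic subunit, differed by 1.33 ± 0.23 (adjusted p = 0.0543). Ncf1 passed without empty-vector replicate 1 (0.98, adjusted p = 0.0405), without replicate 2 (1.68, adjusted p = 0.00364) and with median centring (1.32, adjusted p = 0.0431).

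**Figure D4:**
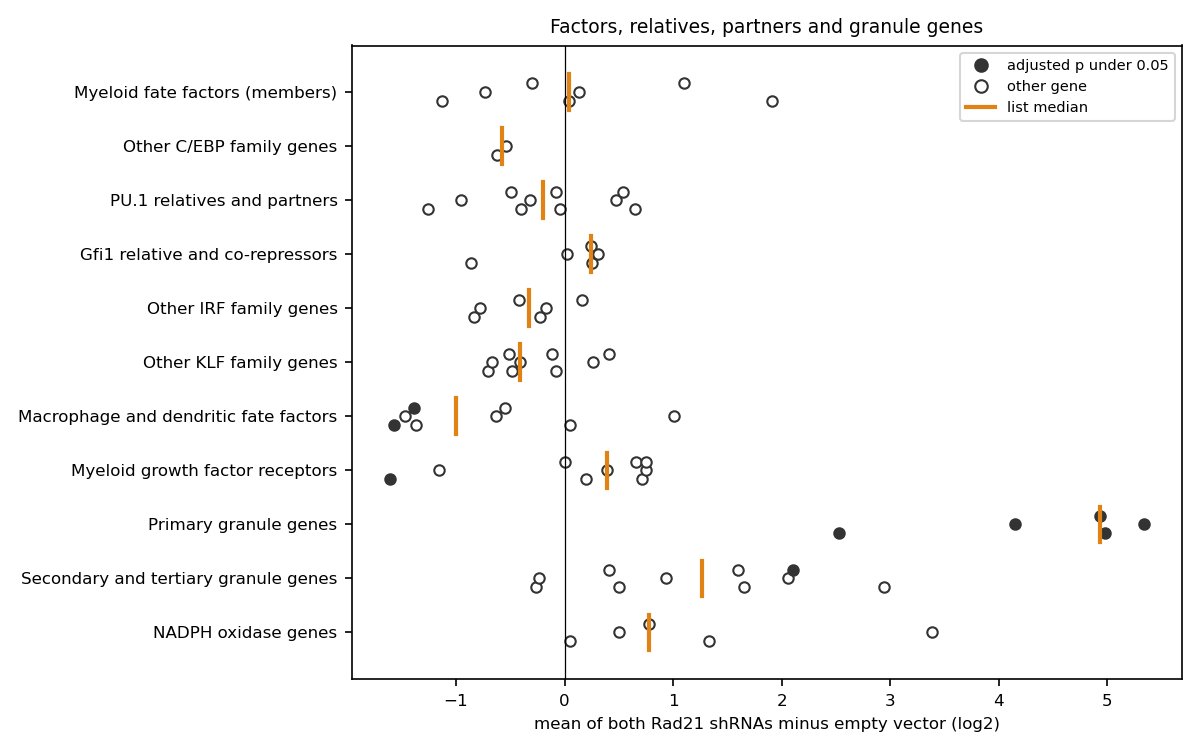
Difference of the mean of both Rad21 shRNAs minus empty vector (log2, x axis) for each measured gene of the 7 factors and of 10 related gene lists, filled where the adjusted p was under 0.05, with an orange bar for the list median. The 5 primary granule genes stand apart at a median of 4.93, and the factors themselves range from -1.13 to 1.91 with no filled point.

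For the 5 factors whose arrays spanned at least 1 log2 unit, the genes with the closest profile were found by the root mean square difference of centred log2 values over the 6 arrays. Nearest to Irf8 were C1ra (0.089), Akr1b8 (0.167) and Ms4a6d (0.178), where the median gene lay 0.697 away. Cebpb was matched by Rap2b (0.104), Ahnak (0.109) and Eepd1 (0.115), with a median of 0.582 over all genes. Closest to Cebpd were Anln (0.135), Il15 (0.212) and Cpq (0.215), against 0.61. Med21 (0.282), Zwilch (0.288) and Abhd6 (0.336) were nearest to Gfi1, and Il13ra1 (0.368), Plk2 (0.409) and Pkdcc (0.427) to Klf4, against medians of 1.129 and 1.109. Among the factors themselves, Cebpb was the nearest to both Klf4 (0.593, the 32nd closest of all genes) and Irf8 (0.477, the 277th closest).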

How the data were processed

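Per the submitters' processing notes, the authors made the deposited values with RMA. This method corrects background, quantile-normalizes arrays and summarises probe sets. The deposited intensities ran from 4.96 to 20614.9, a linear scale, and log2 was taken here with no pseudocount. For the RMA software and its version, the sources used here give nothing. Of 22690 probe sets, 20393 had 1 gene in the platform annotation, and 13 of these were controls and left out. A gene was its probe set with the highest mean.

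limma 3.58.1 (R 4.3.3) fitted the 3 groups in 1 model, with 3 residual and 2.91 prior degrees of freedom and two-sided tests. The other probe sets of a gene were tested in a second fit over 20380 probe sets. The script was tested on simulated data. Tables and figures used Python 3.11.15, pandas 2.3.3 and matplotlib 3.10.9. The factors and lists were chosen with earlier results of these data known. Named list genes were up to 3 past the threshold with the largest difference for both shRNAs, or otherwise the smallest p. Alternatives were 16 settings of filter, probe set choice, normalization, variance model, samples and replicate number. The number of arrays limits precision.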

Additional observations from a re-analysis of the deposited data

Results flagged for a closer look

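Irf8 moved in opposite directions with the 2 shRNAs: both shRNA1 arrays lay above and both shRNA2 arrays below the 2 empty-vector arrays. On the brighter Irf8 probe set shRNA1 exceeded shRNA2 by 1.51, and on the second by 1.3. The test of this difference gave adjusted p of 0.297 (over genes) and 0.333 (over probe sets) with all arrays, and 0.0363 over genes with the shRNA arrays alone. Monocyte and macrophage markers averaged 9.94 and 9.89 with shRNA1 and 9.18 and 9.20 with shRNA2, and their part in the difference was not tested.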

How the results depend on the processing

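Across the 4 comparisons of the 7 genes, 409 of the recomputed differences kept direction and side of the threshold, 12 gained a call, 5 lost it and 15 turned sign. Filters, variance models, the replicate block and leaving out arrays outside a comparison cannot change its difference. Only Cebpb with shRNA2 had a call to lose. The tally is therefore no measure of how stable the differences are. With the replicate block, 2 of the 7 genes were called for shRNA2 (3.62% of all genes), with Klf4 at an adjusted p of 0.0232. With only the 2 groups, 0 were called for shRNA2 (0.968% of all genes). Between the shRNAs, 1 was called with only those groups (0.355% of all genes). Fits without 1 array leave 1 group with 1 array, and counts of calls are not given for them here. A lone remaining array is assumed to vary like the other groups. Signs turned in values near 0. With the mean of all probe sets, Irf8 was -0.054 for both shRNAs and Klf4 0.24 for shRNA1. Without 1 array, Spi1 ran from -0.14 to 0.39 for both shRNAs, -0.091 to 0.44 for shRNA1, -0.19 to 0.35 for shRNA2 and -0.043 to 0.24 between them. Cebpa ran from -0.74 to 0.13, -0.81 to 0.055 and -0.66 to 0.20 in the first 3. Irf8 for both shRNAs ran from -0.29 to 0.38, Klf4 for shRNA1 from -0.33 to 0.17, Cebpd between the shRNAs from -0.22 to 0.58 and Rad21 between them from -0.17 to 0.32. The cause was not tested. Over all genes, 264 (2.13%) were called for both shRNAs, and 113 of 6196 (1.82%) with the dimmer 50% left out. For shRNA1 the count was 29, and 3 to 59 under other settings with all arrays. For shRNA2 it was 351 (2.83%), 180 of 6196 (2.91%) with the dimmer 50% left out and 449 (3.62%) with the replicate block. Same-numbered arrays deviated together over genes (r = 0.199, 0.148 and 0.578 between pairs of groups), but 2 numbers do not settle whether they pair the samples. The replicate block changed no other call of the 7 genes, and it called Rad21 for both shRNAs and for shRNA2 (adjusted p = 0.0166 each).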

Other observations

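Monocyte and macrophage markers did not share 1 direction with shRNA2. Fcgr1, the high-affinity IgG receptor, rose by 2.67 ± 0.31 (limma adjusted p = 0.0179). The scavenger receptor Msr1 fell by 1.67 (SE 0.20, adjusted p = 0.0211) and the mannose receptor Mrc1 by 2.64 (SE 0.36, adjusted p = 0.0273). With shRNA1, Fcgr1 differed by 2.34 ± 0.31, Msr1 by 0.01 ± 0.20 and Mrc1 by -0.56 ± 0.36, and none passed. Between the shRNAs, Msr1 differed by 1.68 ± 0.20 (adjusted p = 0.204) and Mrc1 by 2.08 ± 0.36 (adjusted p = 0.320). These 3 genes were chosen because they were the markers of that list past the threshold with shRNA2.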
